A study of Rattus norvegicus with 6 samples.

Results

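The genes described here encode proteins of the red cell membrane: Rhd, Kel, Rhag, Epb42, Sptb, Ank1 and Epb41. They are 7 genes, of which 5 had at least 1 probe on the array, out of 31087 genes tested. Of these 31087, 12015 had a gene symbol. Each of the rest was an array identifier without a match, counted as a gene, so a gene may be counted more than once. Shares of all genes below are shares of these 31087. The 7 genes were chosen with the results of the comparison below already known. Their own differences are therefore given as a description and no test is offered for them. Probes were assigned through the array's accession for each probe, and Ank1 and Epb41 had no probe that matched the rat gene table by accession, so they are named only. Rhd, Kel, Rhag and Epb42 were set down as restricted to red cells, and Sptb, Ank1 and Epb41 as expressed more broadly, a division taken from general knowledge and not from these arrays.

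The arrays measured RNA of renal cortex from male Sprague-Dawley (Crl:CD(SD)) rats that were 5 weeks old when bought. The o-anisidine group (3 rats) received o-anisidine hydrochloride, an aromatic amine, at 700 mg/kg/day for 4 weeks, and the VC group (3 rats) received water for the same time. All 6 rats ate the same basal diet, no dosing route is stated in the labels, and each rat contributed 1 single-colour array. The comparison asks how gene expression in this tissue differed after treatment.

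Mature mammalian red cells have no nucleus, and the RNA of red cell genes in an organ comes mainly from young red cells in its blood or from precursors. The membrane of a red cell rests on a mesh of spectrin, which is tied to membrane proteins by ankyrin and protein 4.2 on one side and by protein 4.1 on the other. Blood group antigens sit on proteins of the same membrane, among them the Rh complex of RhD and its partner glycoprotein RhAG, and the Kell protein, a peptidase of the neprilysin family. Red cell genes are commonly controlled by GATA1, which binds GATA motifs, and by KLF1, which binds CACCC motifs.

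The promoters of the 5 measured genes are shown so that the start regions of the 4 restricted genes, which were higher on all o-anisidine arrays, can be read beside that of Sptb, whose groups overlapped. Each runs from 250 bases before to 50 bases after the gene's start, as given by RefSeq on the GRCr8 assembly. Capitals mark GATA letters, which here means GATA with A or T just before it and A or G just after it, and the letters CACCC. Both strands were searched, and no GATA match overlapped a CACCC match.
Rhd, chr5:152370950-152371249 (+ strand): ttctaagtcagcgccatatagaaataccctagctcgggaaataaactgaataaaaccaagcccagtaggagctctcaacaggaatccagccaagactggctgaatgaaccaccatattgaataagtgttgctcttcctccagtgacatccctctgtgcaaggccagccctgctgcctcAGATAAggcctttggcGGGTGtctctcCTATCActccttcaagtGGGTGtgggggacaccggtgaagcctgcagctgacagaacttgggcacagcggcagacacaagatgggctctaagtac
Kel, chr4:71551724-71552023 (- strand): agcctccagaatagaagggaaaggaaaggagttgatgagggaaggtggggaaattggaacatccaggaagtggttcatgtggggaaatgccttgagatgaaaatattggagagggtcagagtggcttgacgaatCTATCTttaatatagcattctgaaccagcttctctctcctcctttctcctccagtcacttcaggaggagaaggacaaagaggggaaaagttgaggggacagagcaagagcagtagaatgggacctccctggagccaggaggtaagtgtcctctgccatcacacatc
Rhag, chr9:27594341-27594640 (- strand): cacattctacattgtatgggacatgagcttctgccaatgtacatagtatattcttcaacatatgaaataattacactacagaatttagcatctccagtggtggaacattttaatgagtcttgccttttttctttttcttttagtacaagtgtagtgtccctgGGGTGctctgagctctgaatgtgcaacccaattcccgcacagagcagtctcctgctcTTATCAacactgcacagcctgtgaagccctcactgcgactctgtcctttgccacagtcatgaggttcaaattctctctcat
Epb42, chr3:128451634-128451933 (- strand): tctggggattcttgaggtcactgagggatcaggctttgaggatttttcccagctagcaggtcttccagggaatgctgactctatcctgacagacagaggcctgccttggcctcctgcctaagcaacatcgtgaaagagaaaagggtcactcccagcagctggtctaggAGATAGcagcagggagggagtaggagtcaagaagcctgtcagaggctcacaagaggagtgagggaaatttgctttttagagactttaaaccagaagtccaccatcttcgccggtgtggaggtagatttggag
Sptb, chr6:101170229-101170528 (- strand): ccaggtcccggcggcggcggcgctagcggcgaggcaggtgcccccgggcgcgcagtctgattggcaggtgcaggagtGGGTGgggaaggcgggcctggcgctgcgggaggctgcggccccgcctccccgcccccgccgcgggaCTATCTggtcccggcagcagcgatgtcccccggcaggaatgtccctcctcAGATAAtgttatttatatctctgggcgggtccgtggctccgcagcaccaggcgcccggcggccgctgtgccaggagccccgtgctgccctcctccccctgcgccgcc
All 5 of these promoters held GATA letters, against 30.3% of 33469 rat promoters of the same length. CACCC letters were in 3 of the 5, those of Rhd, Rhag and Sptb, against 54.9% of all promoters. In Rhd the GATA matches began at positions -72 and -45 from the start, with CACCC matches at -56 and -28. The single GATA matches began at -116 in Kel, -31 in Rhag and -82 in Epb42. Sptb held GATA letters at -107 and -57 as well as CACCC letters. Whether the letters bear on the differences between the groups was not tested. The promoter of Epb41, which had no array value, held neither motif. A match of letters is not a binding site.

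Every array had between 41670 and 43630 of 61657 probes well above background and no saturated spot, and signals are given below as log2 relative to the array's 75th percentile, so that 0 is the 75th percentile itself. Slides were inferred from the barcodes in the names of the scans. By these, o-anisidine 1 and 2 were on a slide of their own, while o-anisidine 3 shared a slide with all 3 VC arrays. The 8 markers of renal cortex, from Slc34a1 and Lrp2 of the proximal tubule to Nphs1 of podocytes, Umod of the thick ascending limb and Aqp2 of the collecting duct, were well above background on all arrays. None of them passed the test of difference, and 1 (Aqp2, log2 change -0.58, adjusted p = 0.412 by limma) had an unadjusted p under 0.05, as had 11.5% of all genes. The other Aqp2 probe gave -0.22 (SE 0.13). For 2 of the 8, Lrp2 and Aqp2, the o-anisidine arrays all lay below the VC arrays, as for 8.88% of all genes. With 3 arrays per group, the number of arrays limits the precision of every value.

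The red cell restricted genes were all higher in the cortex of o-anisidine rats on their brightest probes, and on no such probe did an o-anisidine array overlap a VC array. The difference was 2.01-fold for Rhag with VC set to an approximate detection limit, and ran from 3.02-fold for Epb42 to 6.12-fold for Rhd. Of the genes with a fold, Rhd and Kel differed most. Rhag, with only an approximate lower limit, cannot be ranked against them. Sptb, which codes for the beta chain of spectrin in red cells and is also used by muscle and brain, differed by 1.4-fold and its groups overlapped.

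Rhd encodes the carrier of the Rh D antigen in humans. Its single probe had log2 signals of -0.59, -0.22 and -0.45 in the o-anisidine rats (replicates 1, 2 and 3, the order used throughout), against -3.05, -3.17 and -2.89 in the VC rats. The lowest o-anisidine value lay far above the highest VC value. The group means were -0.42 ± 0.18 in o-anisidine rats and -3.03 ± 0.14 in VC rats (SD, n = 3 each), a log2 difference of 2.61 (SE 0.12), or 6.12-fold.

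Rhag, the glycoprotein that carries Rh proteins to the membrane and conducts ammonia, was dimmer. Its brighter probe had log2 signals of -5.36, -5.07 and -4.98 on the o-anisidine arrays, against -6.77, -6.17 and -6.47 on the VC arrays. It was well above background on all 3 o-anisidine arrays and on none of the VC arrays, so VC rats give only an approximate upper limit for Rhag. Each VC array was set to the array's detection limit (its dimmest signal well above background), or to the probe's own signal where that was higher. The mean of Rhag was then 2.01-fold higher after o-anisidine, a point estimate without an interval. The limit is not strict, since a probe can exceed it without being well above background. The fitted log2 difference, which uses the VC signals as measured, was 1.33 (SE 0.18). The other Rhag probe was not well above background on any array and has no fold, although its -5.74 on o-anisidine 1 exceeded that array's detection limit of -5.98.

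Kel encodes the Kell blood group protein, a membrane endopeptidase. On its brightest probe the log2 signals were -3.54, -3.42 and -3.30 in o-anisidine rats, against -5.62, -5.54 and -5.61 in VC rats. Both groups were tight and lay well apart, but the VC signals were dim, near the VC arrays' detection limits of -6.19 to -6.07. With normexp the log2 difference was 0.98. In the main fit the means were -3.42 ± 0.12 in o-anisidine rats and -5.59 ± 0.05 in VC rats (SD, n = 3 each), a log2 difference of 2.17 (SE 0.08), or 4.49-fold. Of its other probes, 1 was well above background on 2 of 3 o-anisidine arrays and on no VC array (-5.53, -5.71 and -6.19 after o-anisidine, against -7.27, -6.88 and -7.42 in VC), and 1 was not well above background on any array.

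Epb42 encodes protein 4.2, a relative of transglutaminases that has no enzyme activity and helps to tie the anion exchanger band 3 to ankyrin. Its brighter probe had log2 signals of -2.69, -2.92 and -3.15 after o-anisidine, against -4.23, -4.61 and -4.70 in VC. The groups did not overlap, and the difference was 1.60 on the log2 scale (SE 0.17), or 3.02-fold. Its dimmer probe, below the background limit on all VC arrays, gave a fitted log2 difference of 1.33 (SE 0.25), with o-anisidine values between -5.14 and -4.74 and VC values between -6.86 and -6.02.

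Sptb had log2 signals of -4.01, -3.32 and -3.81 on the o-anisidine arrays, against -4.42, -3.96 and -4.27 on the VC arrays. o-Anisidine 1 was lower than VC 2, so the groups overlapped. The means were -3.71 ± 0.35 in o-anisidine rats and -4.22 ± 0.23 in VC rats (SD, n = 3 each). The log2 difference of 0.50 (SE 0.21) had a 95% interval from -0.00118 to 1.01.

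**Figure D1:**
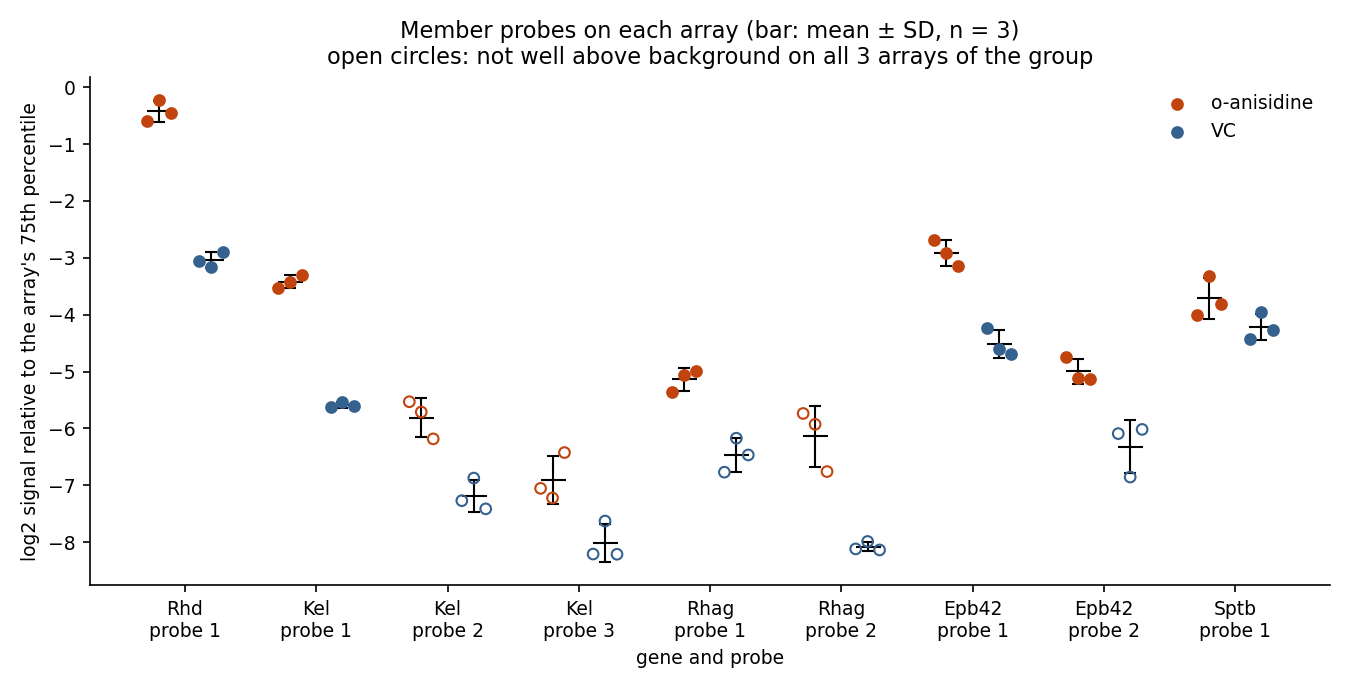
Log2 signal relative to the array's 75th percentile for each of the 9 member probes, with o-anisidine arrays left of VC arrays, points for arrays and bars for mean ± SD (n = 3). Open circles mark groups in which the probe was not well above background on all 3 arrays; all probes but that of Sptb have their o-anisidine points above all of their VC points.

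Of the 5 members tested, 2 (Rhd and Kel) passed an adjusted p of 0.05 in the fit over all genes, where 0.0354% of genes passed it in the higher direction, and 4 had groups that did not overlap in that direction, as had 9.55% of all genes. No member passed or lay apart in the lower direction, where 0.0257% of genes passed (0.0611% in either direction) and 8.88% had groups that did not overlap. Nothing is read from these counts, since the members were chosen from this comparison. The median log2 difference of the 4 restricted genes was 1.88, against 0.00 over all genes and 0.50 for Sptb, the only broadly expressed member measured. In all, 296 genes (0.952%) had a log2 difference of 1 or more, and the 4 restricted genes are among them. In bulk tissue, more cells of a type and more RNA per cell cannot be told apart.

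**Figure D2:**
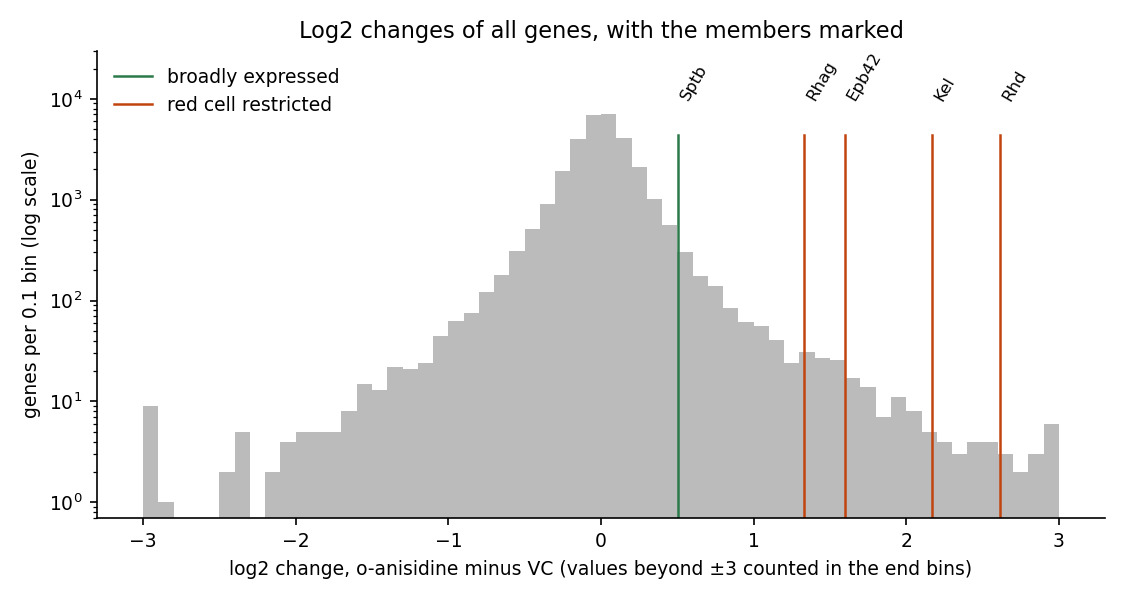
Number of genes, on a log scale, by log2 difference of o-anisidine minus VC in steps of 0.1, with lines at the 5 members. Rhag, Epb42, Kel and Rhd lie in the sparse right tail at 1.33 to 2.61, and Sptb at 0.50 lies closer to the bulk; the line of Rhag is its fitted value, which rests on VC signals below the background limit.

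The restricted genes did not rank the o-anisidine rats in 1 order. On the brightest probes, o-anisidine 2 was highest for Rhd and o-anisidine 3 for Kel and Rhag, while o-anisidine 1, lowest for those 3 genes, was highest for Epb42. The order also depended on the probe: on the dimmer probes of Kel and Rhag that follow them in signal, o-anisidine 1 was highest and o-anisidine 3 lowest. Those probes were not well above background on all 3 o-anisidine arrays. The median shift of the restricted genes from the VC mean was 1.94, 1.88 and 1.89 on o-anisidine 1, 2 and 3, and lay between -0.02 and -0.01 on the VC arrays. Within the slide that held both groups, o-anisidine 3 minus the VC mean was 2.58 for Rhd, 2.28 for Kel, 1.49 for Rhag, 1.37 for Epb42 and 0.40 for Sptb. For the other slide, set against the same VC arrays, these differences were 2.63, 2.11, 1.26, 1.71 and 0.55. With slide as a fixed block 1 of the 5 members (Kel) passed the threshold, and within the slide that held both groups none did by limma, with adjusted p = 0.108 for Kel and 0.1105 for Rhd. Without o-anisidine 3, Rhd missed it (adjusted p = 0.0539, log2 difference 2.63), which left 1 member. Background correction by normexp used the median spot and background signals in place of the processed signal, and added an offset of 50 to each signal. An offset shrinks differences between dim spots, but its part was not separated from that of the change of signal. The log2 differences were then 2.02 for Rhd, 0.98 for Kel, 0.83 for Epb42 and 0.34 for Rhag.

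Other genes of the red cell's membrane skeleton and transport formed a list of 12, of which 10 were measured. None passed the threshold over all genes (limma, Benjamini-Hochberg), and 3, all of them higher, had an unadjusted p under 0.05, which 6.36% of all genes had in that direction. The median log2 change of the list was 0.12. Add2, beta adducin, a cap of actin at the spectrin mesh found mainly in red cells and brain, had log2 signals of -0.89, -1.48 and -1.69 after o-anisidine, against -3.00, -3.38 and -3.84 in VC. Its groups did not overlap (log2 change 2.05, SE 0.28, adjusted p = 0.103 by limma, but 0.0497 with normexp and 0.0472 with a variance trend and robust estimation), and its other probe gave 2.22 (SE 0.33), with 1 of 3 VC arrays well above background. The adducins of most tissues, Add1 and Add3, had log2 changes of 0.04 (95% interval -0.14 to 0.21) and -0.06 (-0.35 to 0.23). The mean log2 signal in VC rats was 4.83 for Add1 and 3.13 for Add3, against -3.40 for Add2, so these log2 changes start from unlike signal levels. Add1 and Add3, and the genes given below with an interval, were picked with their values known. The promoter of Add2 held GATA letters at -102 and -75 and CACCC letters at -55.

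Other carriers of blood group antigens and red cell surface proteins formed a list of 20, of which 17 were measured. None passed the threshold (limma), and 2 higher and 0 lower genes had an unadjusted p under 0.05. Of all genes, 6.36% had such a p in the higher direction and 11.5% in either direction. The median log2 change was 0.07 and the values ran from -0.54 to 0.47. The smallest p-values were those of Cd59b, a complement inhibitor (log2 change 0.30, SE 0.08, adjusted p = 0.257), and Sema7a, a semaphorin that carries the John Milton Hagen antigen in humans (0.47, SE 0.16, adjusted p = 0.373). Many proteins of this list are also made by kidney cells. Slc4a1, the anion exchanger band 3, is used by red cells and by acid-secreting intercalated cells, and had log2 signals of 2.74, 3.68 and 3.08 after o-anisidine, against 2.85, 3.10 and 2.77 in VC. The o-anisidine values straddled those of VC, and the log2 change was 0.26 (95% interval -0.34 to 0.85). Aqp1, the water channel of red cells and proximal tubule, had a log2 change of 0.07 (-0.12 to 0.26). Xk, the partner that is bound to the Kell protein in red cells, had -0.03 (-0.35 to 0.29), against 2.17 for Kel. The mean log2 signal in VC rats was -2.28 for Xk and -5.59 for Kel, so these log2 changes start from unlike signal levels.

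Relatives of the members that belong to other cells formed a list of 18, of which 14 were measured. None passed the threshold (limma), and the median log2 change was 0.01. An unadjusted p under 0.05 was found for 1 higher and 1 lower gene, and for 11.5% of all genes in either direction. Tgm2, the tissue transglutaminase related to protein 4.2, had log2 signals below those of all VC arrays on each o-anisidine array (log2 change -0.44, SE 0.10, adjusted p = 0.192), and Ank3, ankyrin-G of epithelial membranes, had 0.25 (SE 0.08, adjusted p = 0.329). The kidney's own Rh glycoproteins, Rhbg and Rhcg, carry ammonia in the collecting duct. Rhbg had log2 signals of 2.47, 3.06 and 2.68 after o-anisidine, against 2.82, 2.90 and 2.54 in VC, a log2 change of -0.02 (-0.44 to 0.41). Rhcg had a log2 change of 0.13 (-0.29 to 0.55). Sptan1, the alpha spectrin of most tissues, had 0.11 (-0.10 to 0.32), and Mme, neprilysin, the kidney relative of the Kell protein, had 0.02 (-0.64 to 0.68). Mean log2 signals in VC rats were 2.75 for Rhbg and 2.78 for Rhcg, against -6.47 for Rhag, which was below the background limit. For Mme the mean was 3.42, against -5.59 for Kel, so these log2 changes too start from unlike signal levels.

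**Figure D3:**
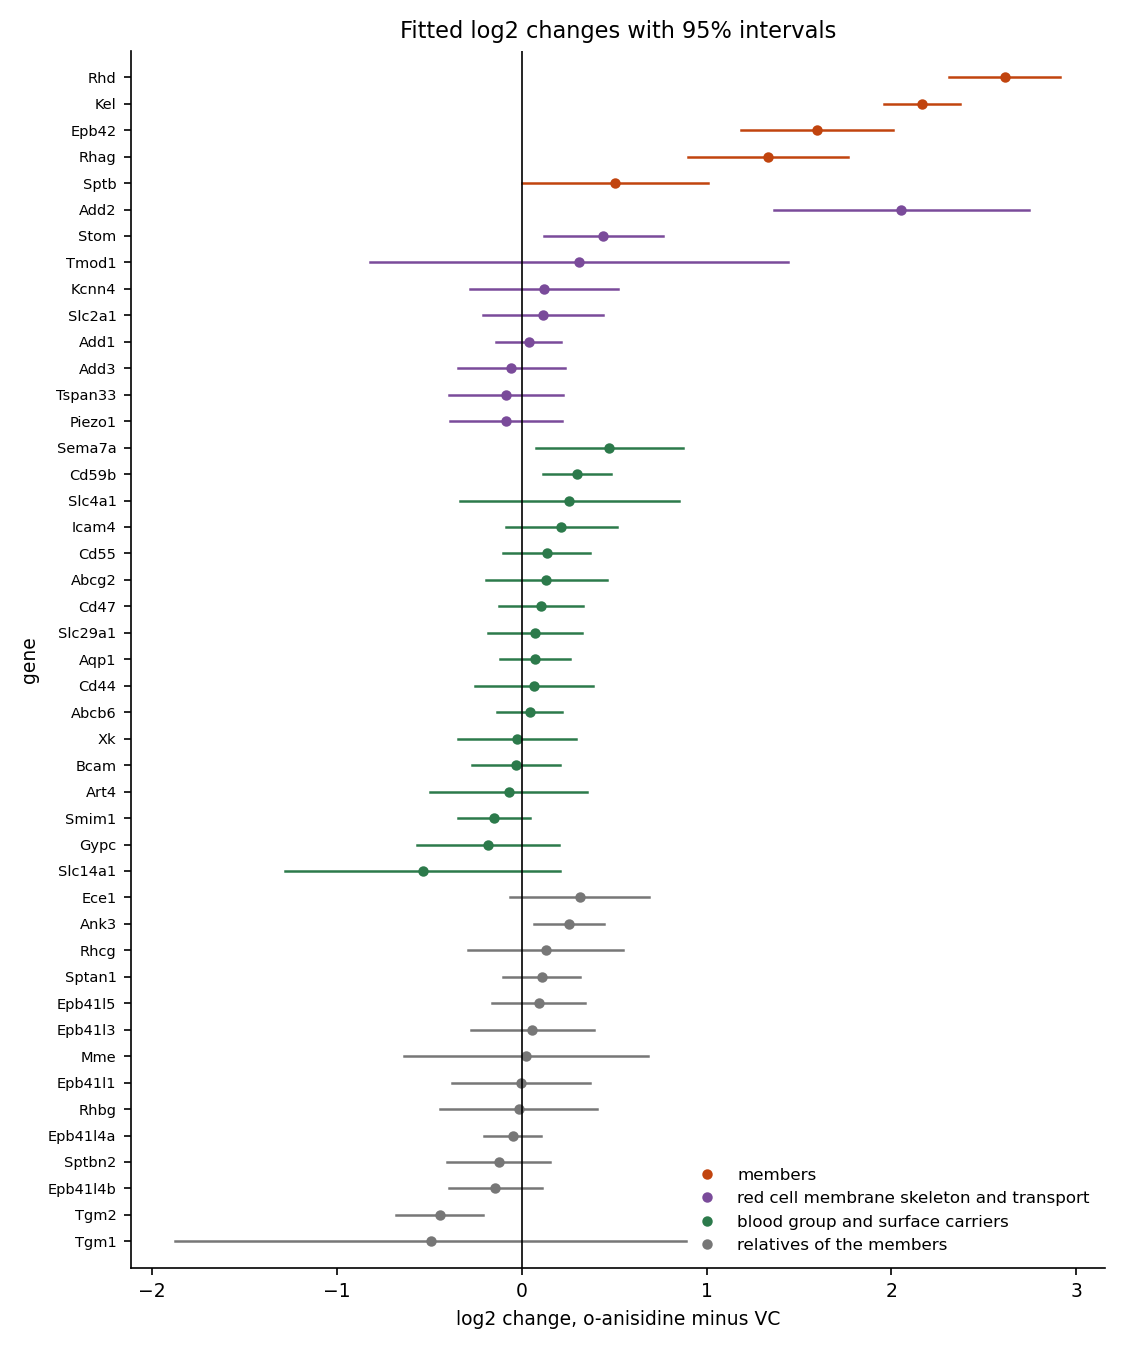
Fitted log2 change of o-anisidine minus VC with its 95% interval for the 5 members and for measured genes of the 3 lists of membrane skeleton, surface carriers and relatives. Outside the members, Add2 at 2.05 lies above 1 and all others shown lie between -0.54 and 0.47; the interval of Rhag rests on VC signals below the background limit.

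Of 21 listed genes of the red cell interior and its regulators, 17 were measured. Of these, 2 passed the threshold, both higher, as did 0.0354% of all genes. The median log2 change of the list was 0.95, against 0.00 over all genes, and 16 of the 17 values were above 0. In the list 13 genes had o-anisidine arrays all above the VC arrays, as had 9.55% of all genes. Ahsp, which keeps free alpha globin chains stable, and Hemgn, found in the nuclei of red cell precursors, passed the threshold (log2 changes 2.34 and 1.97, adjusted p = 0.0419 and 0.0101 by limma). Neither passed with slide as a block (adjusted p = 0.1625 and 0.124 by limma), and Ahsp did not without the filter on dim probes (0.107). Ahsp also missed it without any 1 of the 6 arrays (0.0624 to 0.174), and Hemgn without o-anisidine 1, o-anisidine 3, VC 1 or VC 2 (0.0561 to 0.0755). Tfrc, the transferrin receptor, which red cell precursors share with dividing cells of all kinds, was the 1 gene with a negative log2 change (-0.85, SE 0.26, adjusted p = 0.329). Gata1 was well above background on 2 of 3 o-anisidine arrays and on no VC array, with log2 signals of -5.22, -5.70 and -5.90 after o-anisidine, against -6.77, -7.84 and -7.19 in VC, and was left out of the fit.

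Markers of other blood cells were read beside the members. The 4 measured platelet genes had a median log2 change of 0.05, with Ppbp at 0.46 (adjusted p = 0.501) and Pf4 at -0.35 (adjusted p = 0.721). The 5 measured lymphocyte genes had a median of -0.11 and the 4 measured macrophage genes -0.19. Cd3g, of the T cell receptor, had -0.20, while Csf1r and Adgre1 of macrophages had -0.27 and -0.34 (adjusted p between 0.526 and 0.603 by limma for these 3). The other Csf1r probe, well above background on all arrays, gave -0.0015 (SE 0.08). Of 8 macrophage genes on the array, 4 were not well above background on any array. Of 7 neutrophil genes on the array, Elane, Ngp, Ltf and Cxcr2 were not well above background on any array. The other 3 were measured. S100a9 and S100a8, calcium-binding proteins abundant in neutrophils, had log2 changes of 1.37 (SE 0.22, adjusted p = 0.115 by limma) and 1.36 (SE 0.26, adjusted p = 0.156 by limma). Camp had 0.40. The groups did not overlap for any of the 3, as was so for 9.55% of all genes in the higher direction. The summed signal of these 3 genes, in multiples of the 75th percentile, ran from 1.19 to 1.51 in o-anisidine rats and from 0.46 to 0.72 in VC rats, and that of the 4 restricted members from 0.93 to 1.11 in o-anisidine rats and from 0.19 to 0.21 in VC rats. The part of blood content, or of any blood cell type, in the differences of the members was not tested.

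**Figure D4:**
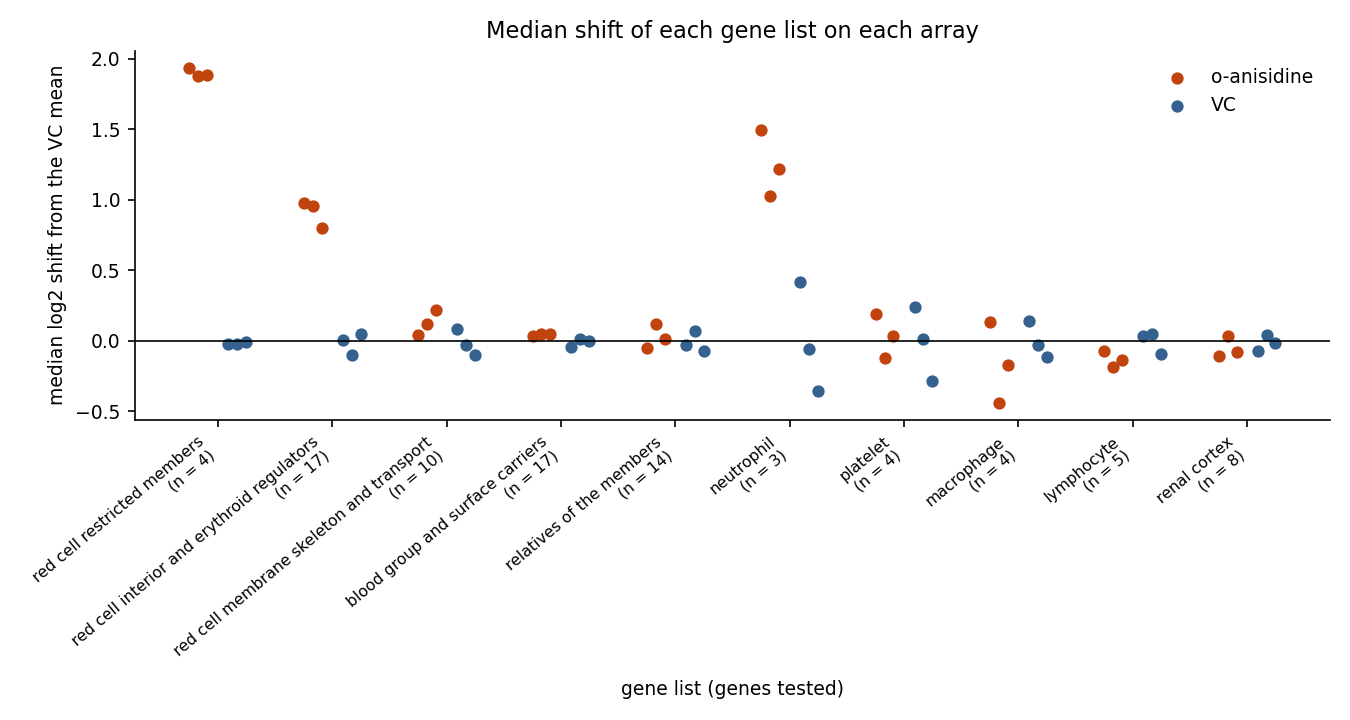
Median log2 shift from the VC mean on each array for the 4 restricted members and 9 gene lists, with o-anisidine arrays left of VC arrays. The restricted members lie between 1.88 and 1.94 on o-anisidine arrays, the red cell interior list between 0.80 and 0.98 and the neutrophil list between 1.03 and 1.49, while the renal cortex list lies between -0.11 and 0.03.

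The 8 genes with a symbol whose pattern over the 6 arrays was most like the mean of the restricted members were Cyp1a1 (Pearson's r = 0.999), Syngr2, Hcn2, Ces4a, Ripor2, Hemgn, Jam2 and Mknk2 (r = 0.986 for the last). The measure follows the step between the groups and ignores its size: Cyp1a1, a cytochrome P450 that aryl hydrocarbon receptor ligands induce, was below the background limit in all VC rats, Hemgn had a log2 change of 1.97, and Syngr2, of vesicle membranes, had only 0.15. Jam2 and Mknk2 had 0.29 and 0.33. All arrays enter both patterns, and the step between the groups is shared by construction. Among the members themselves, Pearson's r over the 6 arrays was 0.869 to 0.993 between pairs of restricted genes and 0.629 to 0.830 between Sptb and each of them, again as a description of 6 arrays in 2 groups.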

How the data were processed

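RNA of renal cortex from 6 rats was measured on single-colour Agilent arrays, with groups taken from the sample titles. Per the file headers, the deposited scanner files hold spot intensity, made with Feature Extraction 10.7.1.1 of Agilent (10.7 in the submitters' processing notes), and the processed signal was used, whose correction steps the headers do not list. The deposited table of authors' values holds a linear, uncentred intensity (column medians 0.104 to 0.108) that correlates at r = 1 with the processed signal over its 75th percentile, but only after the replicates within each group are exchanged, so replicate numbers here follow the scanner files.

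Values were log2 of processed signal relative to the array's 75th percentile over 61657 non-control probes. After 16 probes with an outlier flag were dropped, a probe was used if every array of o-anisidine rats, or every array of VC rats, had it well above background; this left 42036, with 6 of 9 member probes. Accessions were matched to the RefSeq table of GRCr8 for 27460 probes, and a gene was its kept probe of highest mean. The other 34197 probes kept the array's own identifier, which was counted as a gene. Groups were compared with limma 3.58.1 in R 4.3.3 (lmFit and eBayes, two-sided, no covariates), with Benjamini-Hochberg adjustment over 31087 genes and a threshold of 0.05. The fit was tested on simulated data.

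The members and lists were chosen with earlier results of these data known. Named genes are the members, in each list the genes past the threshold or else the 2 of smallest p, the cortex markers, and the 8 genes most like the restricted members; others were picked after their values were seen. The series design calls the rats biological replicates. Same-numbered arrays deviated from their group means with correlations of 0.01 to 0.08, so the numbers were not taken as pairs. The check covers only the numbering of the scanner files and cannot exclude a pairing under another numbering. Values of 2 listed genes are not reported here.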

Additional observations from a re-analysis of the deposited data

How the results depend on the processing

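Over 16 alternatives the 5 members kept a positive log2 difference wherever they were measured, from 2.02 to 2.70 for Rhd, 0.98 to 2.28 for Kel, 0.34 to 1.49 for Rhag, 0.83 to 1.74 for Epb42 and 0.30 to 0.65 for Sptb. With slide as a block, 2 genes were higher and 1 lower over all genes, 0 list genes and 1 member were higher, Kel had 2.28, and the medians of the surface carriers and of the skeleton list were 0.0441 and 0.22. Within the shared slide the same values were 1, 1, 0, 0, 2.28, 0.0441 and 0.22. With the replicate number as a block, a pairing that the check, made on this numbering only, did not bear out, 1 gene was higher and 0 lower, with 0 list genes and 0 members. Normexp gave 67 higher and 17 lower genes, 7 higher list genes, 2.02 for Rhd, 0.98 for Kel, 0.34 for Rhag, 0.83 for Epb42, a restricted median of 0.91 and 0.60 for that median minus Sptb. Normexp adds an offset to every signal, which shrinks differences of dim probes by construction. It also starts from the median spot and background signals in place of the processed signal, and these changes were not separated. No filter on dim probes gave 5 higher genes and 1 higher list gene, and trend with robust estimation gave 91 higher and 29 lower genes and 4 higher list genes; the cause was not tested. Requiring all 6 arrays above background gave 5 lower genes and, since Rhag drops out, a restricted median of 2.17; the mean of all kept probes gave 1.81. Without any 1 array there were 2 to 16 higher and 1 to 5 lower genes, 0 to 1 higher list genes (2 with all arrays), 1 to 2 members, a restricted median of 1.83 to 1.94 and a surface carrier median of 0.0393 to 0.0838. Against all arrays, 11 higher and 8 lower genes were called. Signal over background limits Rhag and the dimmer probes of Kel and Epb42. The brightest Kel probe was also near the detection limit in VC rats, with a mean log2 signal of -5.59.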

Other observations

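The transferrin receptor gene Tfrc was lower on every o-anisidine array than on every VC array on its brightest probe, with log2 signals of 1.22, 1.61 and 0.60 after o-anisidine, against 1.79, 2.11 and 2.08 in VC, and its other probes gave log2 changes of -0.85 and -0.74. Within the red cell interior list the bisphosphoglycerate mutase gene Bpgm had a log2 change of 0.50 (SE 0.09) and the ferrochelatase gene Fech 0.18 (SE 0.08). The mitochondrial iron importer gene Slc25a37 had 0.22 (SE 0.09) on its brighter probe and 0.57 (SE 0.09) on its dimmer one. Alas2, whose enzyme makes the first haem precursor in red cell precursors, had 2.13 (SE 0.28). None of these 5 genes passed the threshold (limma, adjusted p between 0.0993 and 0.466).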
